A study of Mus musculus with 8 samples.

Results

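The genes described are 7 members of the Wnt pathway: Lef1, Tcf7 and Tcf7l2, which encode DNA-binding factors of the LEF/TCF family, Fzd9 and Lgr5, which encode receptors, Ctnnb1, which encodes beta-catenin, and Axin2, a feedback inhibitor of the pathway. Lef1, Fzd9 and Lgr5 were picked for their rise in double-mutant cells from the wild type and double-mutant arrays described here, and the other 4 were added as their partners in the pathway. Every probe set annotated to one of the 7 genes was taken. Of the 12393 genes with a symbol on the array, 6 of the 7 were among them, with 12 probe sets, and Tcf7 was not analysed here because no probe set was matched to it.

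Expression was measured on MOE430A GeneChips, arrays on which each probe set is a group of short probes for 1 transcript or a few. The 4 genotypes were wild type, OBF-1-/- (OBF-1 single-mutant), Aiolos-/- (Aiolos single-mutant) and Aiolos-/-/OBF-1-/- (double-mutant), all on the Bl6 strain and 7 weeks of age by the labels, with 2 arrays each and 8 in all. OBF-1 (gene Pou2af1) binds Oct factors on DNA and raises transcription there. Aiolos (gene Ikzf3) belongs to the Ikaros family of zinc finger factors. Both deletions are carried in the germline, so every cell of the mouse lacks the gene. The study's methods describe B220+ CD25+ pre-BII cells, each array from an independent pool of 8 mice, whereas the labels name bone marrow, for the mutants of a single mouse, with neither sorting nor pooling. The methods are followed here. Pre-BII cells are B-lineage precursors that carry a rearranged immunoglobulin heavy chain and rearrange their light chain genes.

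In the canonical Wnt pathway a secreted Wnt protein binds a Frizzled receptor together with an Lrp coreceptor. The complex of Axin, Apc and Gsk3b that marks beta-catenin for degradation is then held back, and beta-catenin enters the nucleus and binds LEF/TCF factors on their target genes. Without beta-catenin these factors recruit Groucho (Tle) corepressors, and Lgr5 binds R-spondins, which raise the sensitivity of a cell to Wnt. LEF/TCF factors are known for their part in T cell development, and Lef1 is also known in pro-B cells, where it is expressed early and declines as the cells mature.

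The 300 bases around the start sites (250 before and 50 after the start) are shown for Lef1 and Fzd9, picked for one pattern of expression, and for Tcf7l2, which had another. They are RefSeq windows on GRCm38.p6, 5′ to 3′ on the strand of the gene. Capitals mark matches, on either strand, to TGGGAA, the core bound by the Ikaros family, and to CTTTGA or CTTTGT, the core bound by LEF/TCF factors. The octamer ATTTGCAT, bound by Oct factors, was searched in the same way. Of 4 annotated starts of Lef1 the first (chr3:131110047-131110346, + strand) and the fourth (chr3:131156044-131156343, + strand) are shown.
Lef1 start 1: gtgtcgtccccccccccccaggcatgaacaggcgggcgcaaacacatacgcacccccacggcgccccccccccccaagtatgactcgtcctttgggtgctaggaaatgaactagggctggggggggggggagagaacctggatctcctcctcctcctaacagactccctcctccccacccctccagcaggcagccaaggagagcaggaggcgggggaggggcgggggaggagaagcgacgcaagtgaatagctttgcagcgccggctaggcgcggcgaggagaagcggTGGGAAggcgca
Lef1 start 4: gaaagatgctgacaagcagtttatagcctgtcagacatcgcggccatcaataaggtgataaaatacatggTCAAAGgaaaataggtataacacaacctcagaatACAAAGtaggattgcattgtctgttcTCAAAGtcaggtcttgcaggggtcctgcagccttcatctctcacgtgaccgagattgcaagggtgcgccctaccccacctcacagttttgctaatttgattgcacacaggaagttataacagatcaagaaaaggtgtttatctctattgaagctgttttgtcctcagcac
Fzd9 (chr5:135250998-135251297, - strand): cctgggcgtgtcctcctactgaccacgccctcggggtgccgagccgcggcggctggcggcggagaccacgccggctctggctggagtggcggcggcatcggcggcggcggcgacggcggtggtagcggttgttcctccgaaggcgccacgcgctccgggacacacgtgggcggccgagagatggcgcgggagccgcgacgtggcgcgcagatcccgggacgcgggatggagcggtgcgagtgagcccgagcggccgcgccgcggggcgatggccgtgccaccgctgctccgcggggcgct
Tcf7l2 start 1 (chr19:55741560-55741859, + strand): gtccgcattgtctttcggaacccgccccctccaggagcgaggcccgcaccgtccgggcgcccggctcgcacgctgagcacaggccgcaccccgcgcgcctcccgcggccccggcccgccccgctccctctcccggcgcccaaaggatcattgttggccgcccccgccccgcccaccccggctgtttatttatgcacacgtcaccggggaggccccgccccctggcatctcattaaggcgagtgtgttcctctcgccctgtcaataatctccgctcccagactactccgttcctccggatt
Tcf7l2 start 2 (chr19:55895071-55895370, + strand): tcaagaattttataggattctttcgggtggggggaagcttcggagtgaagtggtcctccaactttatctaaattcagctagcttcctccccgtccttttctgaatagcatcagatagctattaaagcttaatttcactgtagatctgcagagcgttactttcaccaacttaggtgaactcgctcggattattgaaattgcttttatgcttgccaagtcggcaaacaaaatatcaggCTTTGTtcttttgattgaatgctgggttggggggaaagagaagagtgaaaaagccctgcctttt

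Lef1 start 1 held 1 match to TGGGAA, 39 bases after the start, and the windows of starts 2 and 3 held 1 each, that of start 2 being the same bases. Lef1 start 4 held 3 LEF/TCF cores, all on the strand opposite to the gene, and Tcf7l2 start 2 held 1, from 14 bases before its start. The windows of Fzd9 and of Tcf7l2 start 1 held no match to any of the motifs. The octamer was in none of the 12 windows of the 6 members that had one, and in 1.74% of all 32851 windows. At least 1 TGGGAA was in 25.6% of all windows and at least 1 LEF/TCF core in 31.2%, so a window with a match is common. Windows with several matches, as in Lef1 start 4, were not counted. The windows are described only, and the arrays do not tell which start a transcript used.

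Lef1 mRNA, read by 1 probe set (1421299_a_at), was low in wild type pre-BII cells, with RMA intensities of 39.6 and 32.2 (linear units). It had intensities of 49.3 and 47.2 in OBF-1 single-mutant, 71.8 and 59.4 in Aiolos single-mutant, and 166 and 175 in double-mutant pre-BII cells. The genotypes did not overlap at any step from wild type through OBF-1 and Aiolos single-mutant to double-mutant cells. Because these arrays chose the gene, the differences from wild type are given as a description with no test: on the log2 scale 0.43 (standard error 0.12) for OBF-1, 0.87 (standard error 0.12) for Aiolos and 2.26 (standard error 0.12) for the double mutant, the last being 4.78-fold. The double-mutant difference exceeded the sum of the single-mutant differences by 0.95 (standard error 0.17). Over the alternatives the difference from wild type ran from 1.85 to 2.41 for the double mutant. It ran from 0.28 to 0.58 for OBF-1 and from 0.65 to 1.02 for Aiolos.

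Fzd9 encodes a Frizzled receptor. Its probe set (1427529_at) had intensities of 92.5 and 106 in wild type cells, 130 and 124 in OBF-1 single-mutant, 226 and 179 in Aiolos single-mutant, and 371 and 286 in double-mutant cells. The order was that of Lef1, again with no overlap, but the Aiolos and double-mutant arrays differed more among themselves (SD 32.9 and 60.4, n = 2 each) than the wild type arrays did (SD 9.64, n = 2). The log2 differences from wild type were 0.36 for OBF-1, 1.02 for Aiolos and 1.72 for the double mutant, 3.29-fold (standard error 0.14 for each). The excess over the sum of both single mutants was 0.34 (standard error 0.20), and it ran from 0.15 to 0.53 over the alternatives.

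Lgr5, which the study calls by its older name Gpr49 and which is known as a stem cell marker in the gut, had intensities of 282 and 212 on the wild type arrays and 296 and 253 on the OBF-1 single-mutant arrays (1450988_at). These groups overlapped. It had intensities of 398 and 379 in Aiolos single-mutant and 906 and 841 in double-mutant cells, so the double mutant lay above all other arrays. The log2 differences from wild type were 0.16 for OBF-1, 0.67 for Aiolos and 1.84 for the double mutant, 3.57-fold (standard error 0.13 for each), and the excess over the single mutants was 1.00 (standard error 0.19). The study already reports a synergistic rise of Gpr49 in double-mutant pre-BII cells from arrays of this series, so the excess is not a separate result. Without the second wild type array the OBF-1 difference was -0.04.

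**Figure D1:**
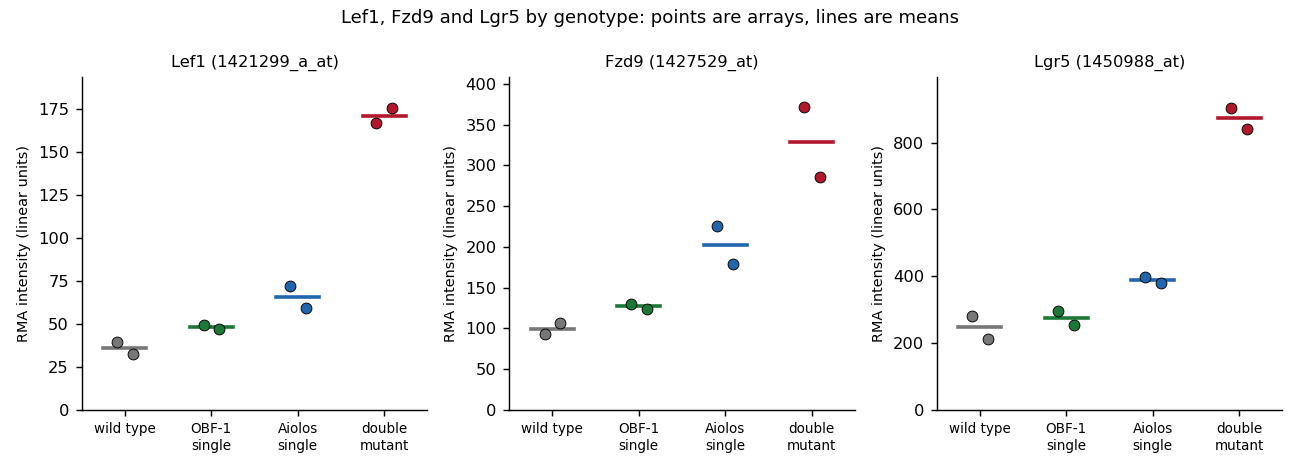
RMA intensity in linear units of the Lef1, Fzd9 and Lgr5 probe sets, with 1 point for each array and a line at the mean of each genotype (2 arrays each, axes from 0). The double-mutant points lie above all others in each panel, and the wild type and OBF-1 points overlap for Lgr5 alone.

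The order of wild type below OBF-1, OBF-1 below Aiolos and Aiolos below double mutant with no overlap was held by 104 of 22626 probe sets (0.460%), those of Lef1 and Fzd9 among them. As both genes were picked from these arrays, nothing is read from that share.

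By the array records, fluidics station 2 processed the wild type and OBF-1 arrays, and station 1 processed the Aiolos and double-mutant arrays. A station difference and the loss of Aiolos cannot be told apart in comparisons across stations. Within station 1 the double mutant exceeded the Aiolos single mutant by 1.39 for Lef1, 0.69 for Fzd9 and 1.17 for Lgr5 on the log2 scale (2.62-fold, 1.62-fold and 2.24-fold). Within station 2 the OBF-1 differences from wild type were the smaller ones given above. The excess of the double mutant over the single mutants uses arrays of both stations. A station offset would cancel in it only if constant on the log2 scale, which was not tested.

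The Aiolos and OBF-1 single mutants were compared with each other in a limma fit over all 22626 probe sets with Benjamini-Hochberg adjustment. A probe set was called at an adjusted p under 0.05. The differences come from the single-mutant arrays, but their standard errors also use the wild type and double-mutant arrays that chose the genes. For Lgr5 the study reports a rise specific to double-mutant cells, which takes the single mutants into account. The p-values are therefore not independent of the choice of the genes. Between the single mutants 2.77% of probe sets were called. Fzd9 was higher in Aiolos than in OBF-1 single-mutant cells by 0.66 on the log2 scale (standard error 0.14, limma adjusted p = 0.0276), or 1.58-fold. The Fzd9 call was lost without OBF-1 replicate 1 (adjusted p = 0.0961), OBF-1 replicate 2 (adjusted p = 0.159) or Aiolos replicate 1 (limma adjusted p = 0.217). Lef1 differed by 0.44 (standard error 0.12, limma adjusted p = 0.0889), which did not pass. Lgr5 differed by 0.51 (standard error 0.13, limma adjusted p = 0.0679), which did not pass, although without either wild type array, which enter only the shared estimate of spread, its adjusted p was 0.0329 (limma). All 3 genes had both Aiolos arrays above both OBF-1 arrays. The share of all probe sets separated in this way was not counted, so nothing is read from it.

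Tcf7l2, which encodes the LEF/TCF factor also called TCF4, did not follow the picked genes: its highest intensities were in OBF-1 single-mutant cells on each of its 4 probe sets. Probe set 1425229_a_at had intensities of 29.4 and 27.3 in wild type cells, 52.9 and 55.6 in OBF-1 single-mutant, 36.6 and 35.6 in Aiolos single-mutant, and 41.7 and 40.1 in double-mutant cells. Probe set 1426639_a_at had intensities of 69.1 and 68.0 in wild type cells, 92.8 and 109 in OBF-1 single-mutant, 69.9 and 72.3 in Aiolos single-mutant, and 81.3 and 77.5 in double-mutant cells. On both, the OBF-1 arrays lay above all others and the double-mutant arrays came next.

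Probe set 1429427_s_at, whose suffix marks probes shared between transcripts, had intensities of 13.8 and 13.6 in wild type cells, 23.9 and 29.9 in OBF-1 single-mutant, 11.2 and 13.8 in Aiolos single-mutant, and 23.4 and 16.2 in double-mutant cells. Probe set 1429428_at had intensities of 12.6 and 12.3 in wild type cells, 28.4 and 49.1 in OBF-1 single-mutant, 10.6 and 12.1 in Aiolos single-mutant, and 24.2 on both arrays in double-mutant cells. These wild type and Aiolos values lie near the bottom of the arrays, at mean percentiles of 6.12 to 10.8. The deposited table has no detection calls, so whether such probe sets were above background is not known.

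**Figure D2:**
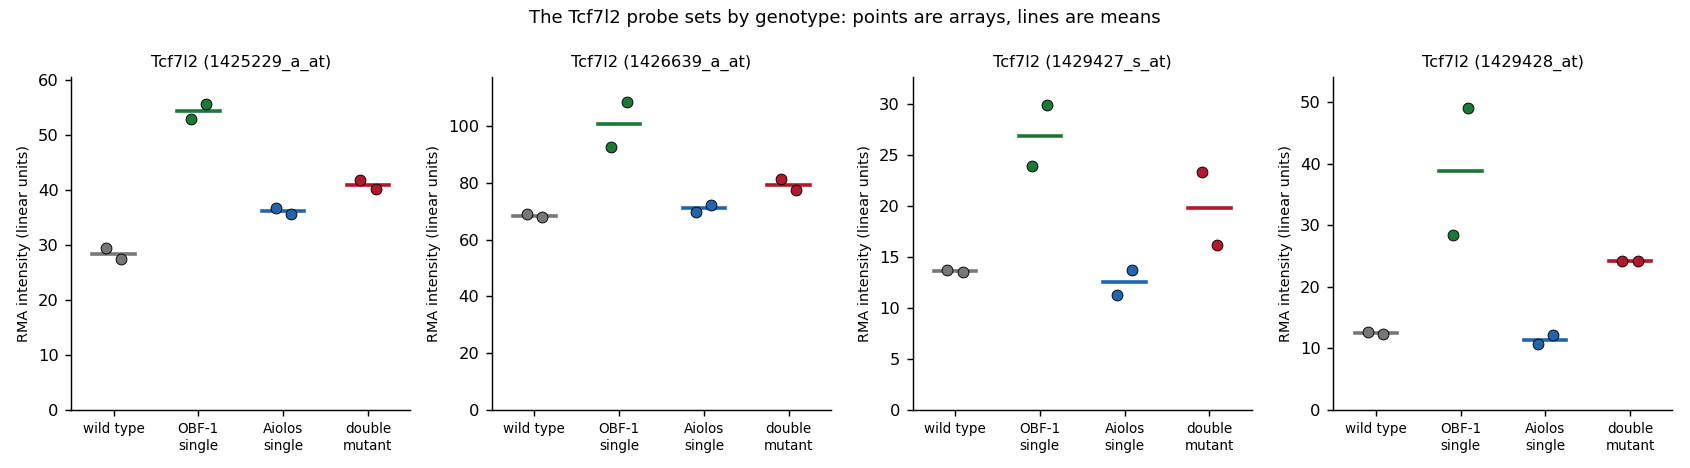
RMA intensity in linear units of the 4 Tcf7l2 probe sets, with 1 point for each array and a line at the mean of each genotype (2 arrays each, axes from 0). The OBF-1 points are the highest in each panel, and the Aiolos points lie near the wild type points except on 1425229_a_at, where both lie further above them. On 1426639_a_at both Aiolos points lie slightly above the wild type points, and on 1429428_at slightly below.

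Tcf7l2 rose in OBF-1 single-mutant against wild type cells on 4 of 4 probe sets, whereas 2.09% of all probe sets were called in this comparison. The log2 difference was 0.94 (standard error 0.09, limma adjusted p = 0.000129) on 1425229_a_at, or 1.91-fold. It was 0.55 (limma adjusted p = 0.0132) on 1426639_a_at, 0.97 (limma adjusted p = 0.00974) on 1429427_s_at and 1.59 (limma adjusted p = 0.000728) on 1429428_at. With 16 units added before taking log2 the difference on 1429428_at was 0.92 (limma adjusted p = 0.0238), and that on 1429427_s_at was 0.53 and did not pass (limma adjusted p = 0.0558). Both genotypes were on fluidics station 2. The 4 probe sets read 1 gene on the same arrays and are not 4 replicates of it. The calls on 1426639_a_at and 1429427_s_at were lost without OBF-1 replicate 2 (adjusted p = 0.131 and 0.107), without wild type replicate 1 (0.0905 and 0.0825) and without wild type replicate 2 (0.0948 and 0.0771), all from limma.

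In Aiolos single-mutant cells Tcf7l2 passed the test against wild type on 0 of 4 probe sets in limma, with 1 at an unadjusted p under 0.05. The log2 differences ran from -0.14 on 1429427_s_at to 0.35 on 1425229_a_at, whose adjusted p of 0.0765 (limma) was the smallest of the 4. For this comparison 1.84% of all probe sets were called. Compared directly, Tcf7l2 was lower in Aiolos than in OBF-1 single-mutant cells on 4 of 4 probe sets, by -0.59 (limma adjusted p = 0.00432), -0.50 (limma adjusted p = 0.0199), -1.10 (limma adjusted p = 0.00377) and -1.72 (limma adjusted p = 0.000402) in the order above. Without OBF-1 replicate 2 the call held on 1429428_at alone, and the adjusted p was 0.0504 on 1425229_a_at and 1429427_s_at and 0.163 on 1426639_a_at (limma). The call on 1426639_a_at was also lost without Aiolos replicate 1 (adjusted p = 0.135) or 2 (limma adjusted p = 0.0944). With 16 units added before taking log2 the differences were -0.59 on 1429427_s_at and -0.97 on 1429428_at, and both passed (limma adjusted p = 0.0314 and 0.0156). This comparison crosses the fluidics stations.

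In double-mutant cells Tcf7l2 lay between the OBF-1 single mutant and wild type. It passed against wild type on 2 of 4 probe sets, where 8.57% of all probe sets were called, with 0.53 (limma adjusted p = 0.00326) on 1425229_a_at and 0.96 (limma adjusted p = 0.00767) on 1429428_at. The other differences were 0.21 (limma adjusted p = 0.246) on 1426639_a_at and 0.51 (limma adjusted p = 0.0851) on 1429427_s_at. The call on 1429428_at was lost without wild type replicate 2 (adjusted p = 0.0605) or double-mutant replicate 1 (adjusted p = 0.0566) and with 16 units added (0.50, adjusted p = 0.0809), and 1429427_s_at passed without double-mutant replicate 2 (limma adjusted p = 0.0163).

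Against the Aiolos single mutant, with both groups on station 1 and 2.95% of all probe sets called, the double mutant was higher on 1 of 4 Tcf7l2 probe sets, 1429428_at (1.09, limma adjusted p = 0.0073). That call was lost without Aiolos replicate 1 (adjusted p = 0.062) or double-mutant replicate 1 (adjusted p = 0.0528) or 2 (adjusted p = 0.0639, limma), without moderation of variances (0.288), and with 16 units added before taking log2 (0.56, limma adjusted p = 0.108). On 1429427_s_at the difference was 0.65 (limma adjusted p = 0.0644), and it passed without double-mutant replicate 2 at 0.91 (limma adjusted p = 0.0168) and with quantile normalization repeated (limma adjusted p = 0.0323). Against the OBF-1 single mutant, with 2.63% called, the double mutant was lower on 1 of 4 probe sets, 1425229_a_at (-0.41, limma adjusted p = 0.0371), and this call was lost without any 1 of the OBF-1, Aiolos or double-mutant arrays (limma adjusted p = 0.0596 to 0.209), with only the groups compared (0.084) and without moderation of variances (0.139). On 1429428_at the difference of -0.62 did not pass (limma adjusted p = 0.122) but passed without OBF-1 replicate 1, at -1.02 (limma adjusted p = 0.00203).

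The interaction, the double-mutant difference minus both single-mutant differences, was called for 0.186% of all probe sets. For Tcf7l2 it was -0.76 on 1425229_a_at (standard error 0.13, limma adjusted p = 0.0453), opposite in sign to the excess of Lef1, Fzd9 and Lgr5, and from -0.49 to -0.32 on the other probe sets, which did not pass. The call on 1425229_a_at was lost on leaving out any 1 of the 8 arrays (limma adjusted p = 0.084 to 0.186) and in 13 of 15 alternatives in all.

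**Figure D3:**
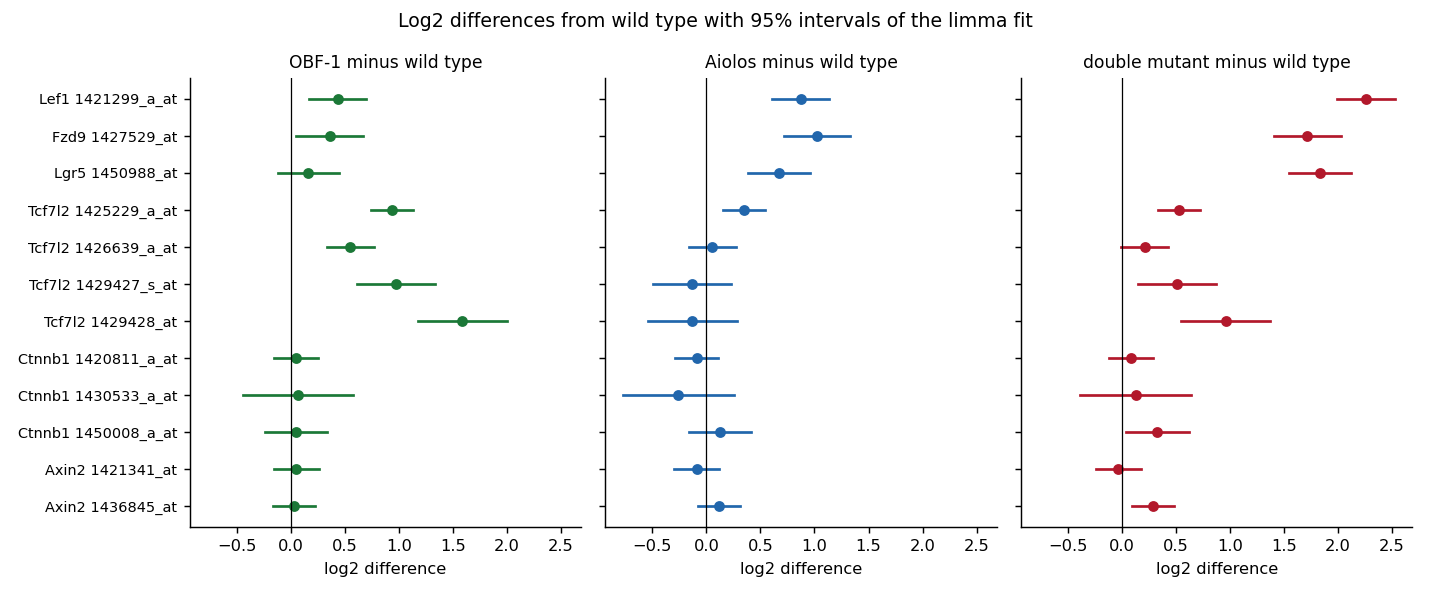
Log2 differences from wild type for each probe set of the members in OBF-1 single-mutant, Aiolos single-mutant and double-mutant cells, with points at the difference and bars for 95% intervals of the limma fit. All 3 panels share the wild type arrays. Tcf7l2 stands to the right in the OBF-1 panel, and Lef1, Fzd9 and Lgr5, which were picked for it, stand to the right in the double-mutant panel.

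Ctnnb1, which encodes beta-catenin, the partner of LEF/TCF factors, did not pass in any of the 7 comparisons on any of its 3 probe sets: limma called 0 of 21 tests, and 1 had an unadjusted p under 0.05. With 0.186% to 8.57% of all probe sets called by comparison, a count of 0 is not particular to Ctnnb1. On 1420811_a_at the intensities were 1077 and 1056 in wild type cells, 1130 and 1076 in OBF-1 single-mutant, 973 and 1031 in Aiolos single-mutant, and 1082 and 1183 in double-mutant cells. The double mutant differed from wild type by 0.09 on the log2 scale, with a 95% interval of -0.12 to 0.29 (limma adjusted p = 0.673).

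The other Ctnnb1 probe sets were more variable. On 1450008_a_at the wild type intensities were 307 and 263 and the double-mutant ones 343 and 371, a log2 difference of 0.33 (limma adjusted p = 0.168), with 334 and 258 in OBF-1 and 331 and 291 in Aiolos single-mutant cells. On 1430533_a_at the wild type arrays themselves read 201 and 111, the OBF-1 arrays 188 and 129, the Aiolos arrays 136 and 114 and the double-mutant arrays 170 and 156. The double-mutant difference there was 0.13 with a 95% interval of -0.38 to 0.64, and without wild type replicate 2 it was -0.30.

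Axin2, a common readout of beta-catenin activity, did not pass in any comparison on either probe set: limma called 0 of 14 tests, against the same shares of all probe sets, and 2 had an unadjusted p under 0.05. On 1436845_at the intensities were 67.0 and 63.3 in wild type cells, 64.7 and 68.3 in OBF-1 single-mutant, 69.3 and 72.2 in Aiolos single-mutant, and 80.0 and 78.9 in double-mutant cells. The double-mutant arrays lay above all others, by a log2 difference of 0.29 from wild type (standard error 0.09, limma adjusted p = 0.0735), and it passed when only probe sets of at least 50 units were tested (limma adjusted p = 0.0462) or when 16 units were added before taking log2 (limma adjusted p = 0.0422). On 1421341_at the intensities were 13.8 to 16.3 on all 8 arrays, with a log2 difference of -0.03 between double mutant and wild type.

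**Figure D4:**
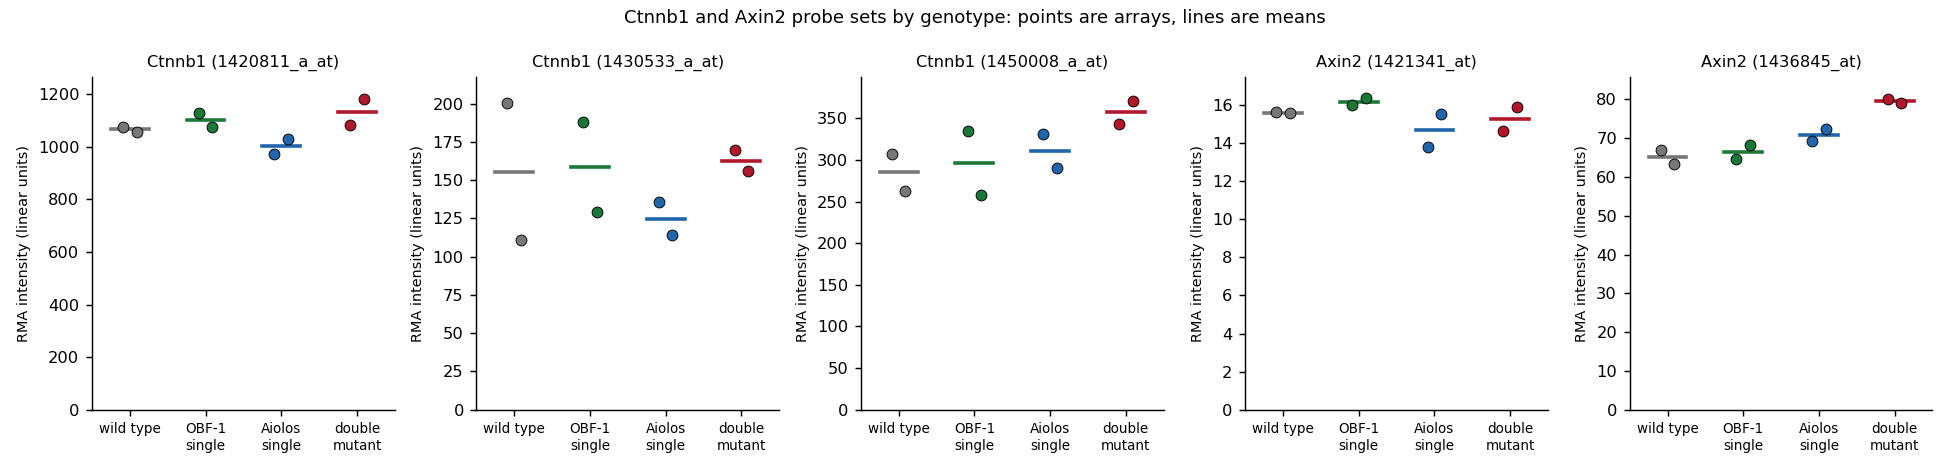
RMA intensity in linear units of the 3 Ctnnb1 and 2 Axin2 probe sets, with 1 point for each array and a line at the mean of each genotype (2 arrays each, axes from 0). The genotypes overlap or lie close together, and on Axin2 1436845_at the double-mutant points, at 80.0 and 78.9, are the highest.

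The rest of the pathway was read from a list of 104 other Wnt genes, 95 of them measured, each by the probe set of highest mean intensity. In double-mutant against wild type cells 4 rose and 3 fell, 7.37% of the 95, and 9.03% of all genes were called. The list's median log2 difference was 0.04, and that of all genes was 0.01. Without wild type replicate 2 or double-mutant replicate 2 the count of called genes was 4. Wls, the carrier that brings Wnt proteins to the cell surface, had intensities of 85.2 and 78.1 in wild type and 132 and 175 in double-mutant cells (log2 0.90, limma adjusted p = 0.00436). It was the only 1 of 23 measured genes for ligands and their export to pass, and no gene encoding a Wnt ligand did.

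Of 15 measured receptor genes, Ror1, a receptor for non-canonical Wnt ligands, fell by 0.39 on the log2 scale (limma adjusted p = 0.0439), from 33.2 and 40.2 in wild type to 26.6 and 29.2. Limma called 0 of 12 secreted inhibitors, of which 1 had an unadjusted p under 0.05. Of 18 genes of the cytoplasmic relay, Apc, part of the destruction complex, rose from 161 and 146 to 200 and 215 (log2 0.43, limma adjusted p = 0.0252). Frat2, which binds Gsk3 and counters it, rose from 443 and 426 to 618 and 611 (log2 0.50, limma adjusted p = 0.00514). Of 15 nuclear partners, the Groucho corepressor gene Tle1 rose from 108 and 93.5 to 129 and 145 (log2 0.44, limma adjusted p = 0.0224).

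Of 12 genes known as targets of the pathway in other tissues, 2 passed, and both fell. Jun had intensities of 831 and 496 in wild type and 196 and 153 in double-mutant cells (log2 -1.89, limma adjusted p = 0.00203), and it was also lower in OBF-1 single-mutant cells, at 202 and 303 (log2 -1.38, limma adjusted p = 0.038). Cd44, a cell surface receptor for hyaluronan, had intensities of 565 and 514 in wild type and 348 and 324 in double-mutant cells (log2 -0.68, limma adjusted p = 0.000852). The target genes Ccnd1 and Myc, chosen for naming after their values were seen, differed by 0.25 (limma adjusted p = 0.177) and 0.13 (limma adjusted p = 0.586).

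**Figure D5:**
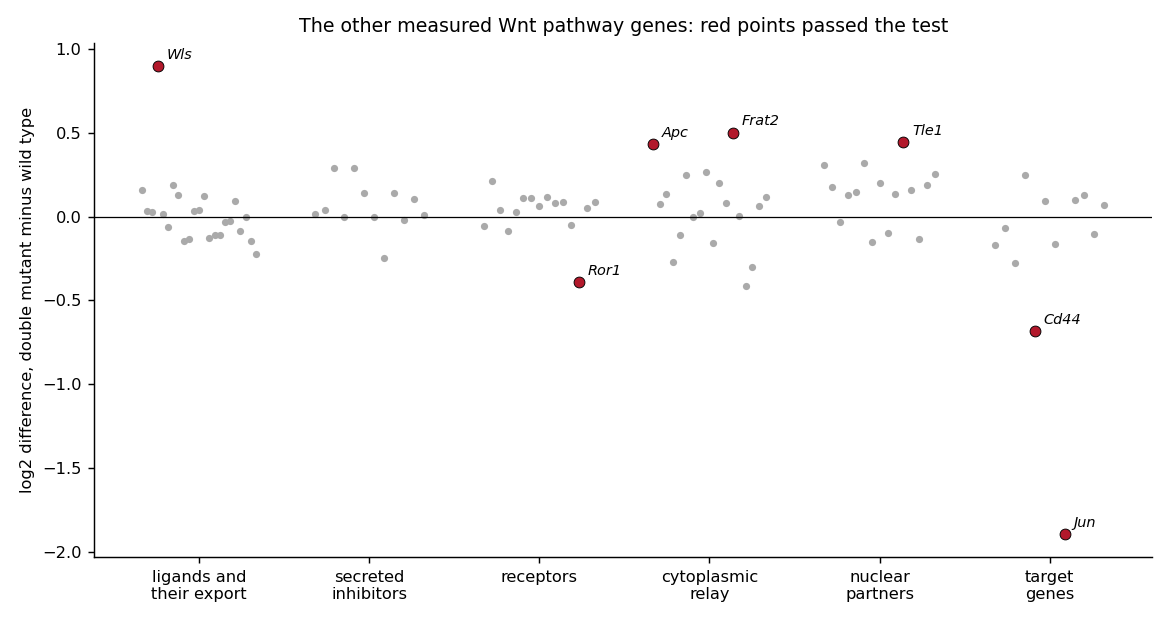
Log2 difference of double-mutant from wild type cells for the 95 measured Wnt pathway genes other than the members, 1 point each, grouped by role. The 7 named points in red passed the limma test, 4 above and 3 below 0, and the grey points did not.

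In the single mutants the shares of the 95 genes called were near those of all genes. At an unadjusted p under 0.05 (limma) there were 15 genes for OBF-1 and 17 for Aiolos. The share of all genes at that threshold was not counted, so nothing is read from these counts. In OBF-1 single-mutant cells Jun was the 1 gene called (1.05%), where 2.28% of all genes were called, and this call was lost without wild type replicate 1 or without any 1 of the OBF-1 and double-mutant arrays. In Aiolos single-mutant cells, with 2 genes called (2.11%) and 1.78% of all genes called, the ligand gene Wnt10a rose from 66.2 and 68.8 to 116 and 94.3 (log2 0.63, limma adjusted p = 0.0215), and Gsk3b, the kinase of the destruction complex, fell by 0.58 on the log2 scale (limma adjusted p = 0.041). Neither was called without wild type replicate 1, wild type replicate 2 or Aiolos replicate 1 (0 genes), and 1 gene was called without either double-mutant array. Wnt10a had intensities of 60.2 and 69.4 in double-mutant cells and was lower there than in Aiolos single-mutant cells (log2 -0.69, limma adjusted p = 0.00549).

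Between the double mutant and the Aiolos single mutant, with 3.41% of all genes called, 3 of the 95 were higher and 2 lower. Beside Wnt10a these were Wls (0.83, limma adjusted p = 0.015), Frat2 (0.44, limma adjusted p = 0.0222) and the short Groucho-related gene Tle5 (0.71, limma adjusted p = 0.0126), all higher, and Cd44 (-0.48, limma adjusted p = 0.0173), which was lower. The count of 5 was 1 without Aiolos replicate 2 and 2 without any 1 of the other Aiolos and double-mutant arrays. Between the double mutant and the OBF-1 single mutant, with 2.90% called, Ror1 was lower (-0.51, limma adjusted p = 0.0304), a call lost without any 1 of the OBF-1 and double-mutant arrays and with 16 units added before taking log2. Between the Aiolos and OBF-1 single mutants, with 3.13% called, Wnt10a was higher (0.74, limma adjusted p = 0.00457). Tle5 (-0.85, limma adjusted p = 0.00518) and Birc5, the inhibitor of apoptosis survivin (-0.71, limma adjusted p = 0.0203), were lower in Aiolos than in OBF-1 single-mutant cells. Without OBF-1 replicate 2 or Aiolos replicate 1 the count of 3 was 1. For the interaction limma called 0 of the 95 genes, against 0.161% of all genes. A further count, 17 genes at an unadjusted p under 0.05 (limma), has no share of all genes beside it.

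Among the genes named for their intensity in wild type cells, Lrp6, a coreceptor, had a mean intensity of 234 in wild type and 248 in double-mutant cells, and Ryk, a further receptor, 47.5 and 50.5. The ligand gene Wnt7b had mean intensities of 163 and 174, and none of these 3 passed. The secreted inhibitors Sfrp1 (168 and 141) and Sfrp4 (103 and 101) did not pass either. In the cytoplasm and nucleus the means were 2202 and 2381 for Tnks2, 1313 and 1558 for Csnk1d, 2820 and 2628 for Sox4, and 968 and 1211 for Hbp1, with limma adjusted p between 0.0675 and 0.772.

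The genes whose log2 values ran most like the picked members over the 8 arrays were taken from 976 genes that varied between genotypes. For Lef1 they were Ctsb (Pearson r 0.990), Gypc (0.989), Spred2 (0.989), Lgr5 (0.989) and Pfn2 (0.987). For Lgr5 they were Tspan14 (0.992), Pde2a (0.989), Lef1 (0.989), Gypc (0.986) and Ssbp2 (0.980). For Fzd9 they were Stx6 (0.987), Prep (0.984), Arhgap9 (0.981), Pard6g (0.980) and Tspyl4 (0.979). Pfn2, a profilin, had mean intensities of 105, 150, 190 and 354 from wild type through OBF-1 and Aiolos to double-mutant cells, and Prep, a peptidase, 1184, 1356, 2225 and 3283. These r values describe arrays that share genotypes, and they carry no test.

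Facts of the arrays as a whole bear on these values. Array medians were 66.8 to 69.4 units, and arrays correlated with an r of 0.9961 to 0.9965 within and 0.9878 to 0.9946 between genotypes. Pou2af1 had intensities of 2434 to 2842 in the wild type and Aiolos arrays and of 170 to 273 in the OBF-1 and double-mutant arrays, which are labelled as lacking OBF-1. No probe set was matched to Ikzf3. Fewer cells of a type and less RNA per cell cannot be told apart in these bulk samples.

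Markers of other cells moved with the genotypes to different degrees. Of the pro-B and pre-BI list (11 of 11 measured) 6 genes were called higher and 1 lower in double mutant against wild type, where 9.03% of all genes were called. The summed intensity was 12949 to 13110 in wild type, 9815 to 9947 in OBF-1 single-mutant, 17055 to 17926 in Aiolos single-mutant and 19308 to 19511 in double-mutant cells. Within it the genes moved in opposite directions: the surrogate light chain gene Igll1 had intensities of 281 to 327 in wild type and 5408 to 5904 in double-mutant cells, and Vpreb3 had intensities of 5822 to 5997 in wild type, 1108 to 1197 in OBF-1 single-mutant and 1759 to 1836 in double-mutant cells. Vpreb1 had 191 to 195 in wild type and 3242 to 3478 in double-mutant cells, and Il7r 1773 to 1824 and 3071 to 3542. Dntt, Spn and Bst1 were also higher in double-mutant than in wild type cells. Over all 8 arrays Kit ran from 38.6 to 47.8, Cd34 from 22.3 to 27.9, Flt3 from 96.2 to 116 and Myb from 4227 to 4471. The T cell list (14 of 15 measured), relevant to Lef1, summed to 621 to 677 in wild type, 676 to 697 in OBF-1 single-mutant, 770 in both Aiolos and 724 to 758 in double-mutant arrays. Lat, the 1 gene called in double mutant against wild type, ran from 47.8 to 78.1 over all arrays. Aiolos against wild type and double mutant against OBF-1 also had 1 gene called higher each. Of its defining genes, Cd3g ran from 13.8 to 17.1 over all 8 arrays. Cd3e had 116 to 124 units in wild type, 137 to 138 in Aiolos single-mutant and 123 to 124 in double-mutant cells. Zap70 had 163 to 192, 225 to 227 and 195 to 213 in the same order. Bcl11b went the other way in Aiolos single-mutant cells, with 18.2 to 19.1 against 21.1 to 21.9 in wild type. The myeloid list (10 of 11 measured) summed to 22194 to 22320 in wild type and 27547 to 28049 in double-mutant cells, with 7 genes called higher, and to 27218 to 30753 in OBF-1 single-mutant cells, with 4 called higher (2.28% of all genes were called there), and 25229 to 26023 in Aiolos single-mutant cells. The stroma list summed to 680 to 709 in wild type and 755 to 866 in double-mutant cells, with 1 gene called higher. It summed to 737 to 778 in OBF-1 and 734 to 774 in Aiolos single-mutant cells. Pecam1 had 219 to 244 in wild type and 269 to 352 in double-mutant cells, and Vcam1 50.1 to 52.8 and 62.1 to 79.6. Over all 8 arrays Cxcl12 ran from 25.6 to 34.9, Col1a1 from 30.9 to 39.0 and Cdh5 from 24.6 to 30.7. The erythroid list (6 of 8 measured) summed to 1449 to 1511 in wild type and 1835 to 2088 in OBF-1 single-mutant cells. It summed to 1330 to 1570 in Aiolos single-mutant and 1527 to 1583 in double-mutant cells. Most of the sum was Tfrc, with 1037 to 1107 in wild type and 1337 to 1432 in OBF-1 single-mutant cells, and Klf1 had 105 and 165 to 231 there. Over all 8 arrays Hba-a1 ran from 18.2 to 27.5 and Gata1 from 33.2 to 54.4. The NK list (7 of 8 measured) summed to 345 to 407 over all arrays, with no gene called in the double mutant. The pre-BII list (12 of 13 measured) summed to 30561 to 31473 in wild type and 27222 to 27519 in double-mutant cells. In double mutant against wild type 4 of its genes were called higher and 3 lower. Il2ra, which encodes CD25, had intensities of 396 to 445 in wild type and 626 to 703 in double-mutant cells. Cd79b, a signalling chain of the B cell receptor, had intensities of 6211 to 6215 and 3426 to 3679, and Ms4a1, which encodes CD20, 2379 to 2521 and 580 to 650. Pax5 had 58.4 to 72.6 units over all arrays. The part of these markers in the results was not tested.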

How the data were processed

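The deposited intensity of each probe set is on a linear scale. Per the labels the authors computed it by RMA (no version given), that is, background correction, quantile normalization across the arrays and a summary over probes. The study's methods mention other software, Affymetrix Microarray suite 5 with GeneSpring 5. Log2 was taken here. Of 22690 probe sets 64 controls were left out. Names came from GEO's platform annotation: 20380 probe sets had 1 symbol, 691 several and 1555 none, and only those with 1 were named. The fit used R 4.3.3 and limma 3.58.1, with all 8 arrays, 1 mean per genotype, variances moderated by empirical Bayes (4 residual and 7.69 prior degrees of freedom) and Benjamini-Hochberg adjustment over 22626 probe sets in each of 7 comparisons. The fit was tested on simulated data. The p-values measure the spread between arrays of a genotype, pooled over the 4 genotypes and moderated by that of all probe sets. By the study's methods each array is a pool of 8 mice, so the spread between single mice is not measured. The number of arrays limits the precision. Replicate numbers do not pair the arrays (r of replicate differences -0.0875 to 0.103). Comparisons with wild type share its arrays.

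The members and the gene lists were chosen with earlier results of these data known. Lef1, Fzd9 and Lgr5 were tested only between the single mutants. The genes named are the members, each listed Wnt gene that passed in any comparison, the 2 of each list with the highest wild type intensity, and the 5 most like each picked member (a genotype mean of at least 100 units and a range of genotype means of at least 0.5 log2). Promoter windows are from RefSeq (GRCm38.p6), with 6 of 7 members matched. Alternatives were other normalizations, intensity filters, an offset of 16 units, no moderation, trend and robust variances, a replicate block, fewer groups, any probe set of a gene, a 3-fold change with an unadjusted p under 0.05 (the study's thresholds), and each array left out.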

Additional observations from a re-analysis of the deposited data

Results flagged for a closer look

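On Tcf7l2 probe set 1425229_a_at the interaction of the 2 deletions was -0.756 on the log2 scale (limma adjusted p = 0.0453), with a rise of 0.94 for OBF-1 loss on a wild type background and a difference of 0.18 for the same loss on an Aiolos-deficient background. The call was lost in 13 of 15 alternatives: without any 1 of the 8 arrays (limma adjusted p = 0.084 to 0.186), with repeated quantile normalization (0.0836), arrays centred on their median (0.0558), no moderation of variances (0.298), the replicate block (0.0538) or 16 units added (limma adjusted p = 0.0822). On probe set 1426639_a_at both Aiolos arrays lay above both wild type arrays, and both double-mutant arrays lay below both OBF-1 single-mutant arrays, so loss of Aiolos went opposite ways without and with OBF-1 loss. That opposition was picked up from the positions of the arrays and not tested as such. Its interaction was -0.393 and did not pass (limma adjusted p = 0.343), and the Aiolos difference without OBF-1 loss was 0.05 on the log2 scale.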

How the results depend on the processing

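For the members, 940 values were recomputed under the alternatives: log2 differences and, for some comparisons, counts of called Tcf7l2 probe sets. The pathway counts are not among them. Of the 940, 821 kept their direction and side of the threshold, moved by less than the replicate spread or, for counts, changed little. Of the rest 55 lost a call, 12 gained one, 48 (differences or counts) moved by more and 4 reversed. On leaving out each array in turn the OBF-1 difference of Lgr5 ran from -0.0405 to 0.37, the Aiolos difference of Tcf7l2 1429427_s_at from -0.28 to 0.00978, and the double-mutant difference from -0.30 to 0.56 for Ctnnb1 1430533_a_at and from -0.0919 to 0.0277 for Axin2 1421341_at. No Wnt pathway count above 0 held without moderation of variances: 1 gene was called in double mutant against wild type (7 before) and 0 in the other comparisons, and the 3-fold rule with an unadjusted p under 0.05 also gave 1 and 0. Leaving out single arrays gave 4 to 7 genes for double mutant against wild type (4 without wild type replicate 2 or double-mutant replicate 2), 0 to 1 for OBF-1, 0 to 2 for Aiolos, 1 to 6 for double mutant against Aiolos, 0 to 1 for double mutant against OBF-1 and 1 to 3 for Aiolos against OBF-1. OBF-1 against wild type gave 0 with trend and robust variances or 16 units added. Aiolos against wild type gave 1 with a repeated quantile normalization, 16 units added or only the groups compared, and 5 with any probe set of a gene. Double mutant against OBF-1 gave 2 at 100 units or more, 4 with trend and robust variances and 3 with any probe set. Tcf7l2 was called on 0 probe sets without moderation in OBF-1 against wild type and in Aiolos against OBF-1, and on 1 in double mutant against wild type. Filters at 100 and 50 units left 1 and 2 Tcf7l2 probe sets to test: 1 and 2 were called in OBF-1 against wild type and in Aiolos against OBF-1, and 0 and 1 in double mutant against wild type, which gave 1 with 16 units added. Single arrays left out gave 1 to 3, 2 to 4 and 1 to 4 Tcf7l2 probe sets in double mutant against wild type, OBF-1 against wild type and Aiolos against OBF-1. Axin2 gave 1 call at 50 units or more and 1 with 16 units added. Fzd9 between the single mutants was also lost without moderation (limma adjusted p = 0.336) and with 16 units added (0.0645), and Lgr5 passed with a repeated quantile normalization (0.0439), trend and robust variances (0.038) or only the groups compared (limma adjusted p = 0.0464). The cause of these changes was not tested. With 2 arrays a genotype, differences in dim probe sets rest on few units.

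With the replicate number as a block, although the numbers do not pair the arrays, Lgr5 passed between the single mutants (limma adjusted p = 0.0252), the Tcf7l2 1425229_a_at interaction did not (limma adjusted p = 0.0538), and 2 pathway genes were called in double mutant against OBF-1; no other call of a member changed.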
